A study of Mus musculus with 14 samples.

Results

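Alternative splicing lets a gene make more than 1 mRNA from the same transcript. An internal exon can be kept or skipped, 1 of a pair of neighbouring exons can be chosen, or the spliceosome can join an exon at either of a pair of 3′ splice sites, which may lie only a codon apart. In liver, as elsewhere, the choice is set by RNA-binding proteins such as the SR and hnRNP families, and a form with a changed reading frame can be removed by nonsense-mediated decay.

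The 10 genes described here, Wiz, Albfm1, Baz2b, Kansl2, Il18, Usp34, Disp1, Ddo, Zbtb44 and Osbpl8, carried every skipped exon (4 genes), mutually exclusive exon pair (3 genes) and alternative 3′ splice site (3 genes) that the study's comparison of control and erythrodiol livers kept, out of 16 genes in all. The other 6 genes carried retained introns. The events were selected on the difference in inclusion between these same libraries, so the shares below are a description and no test of them was made. Events that fell just outside the filter were not used here.

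Libraries were made from polyA RNA of livers of male C57BL/6 mice (C57BL/6J in the methods) that lacked apolipoprotein E. Mice of the control group received a Western diet, and those of the erythrodiol group the same diet with erythrodiol, a triterpene of the olive. The dose was 10 mg per kg of mouse by the paper's estimate, not per kg of diet. Labels gave an age of 8 weeks and a diet of 8 weeks, whereas the methods gave a longer feeding. Each group had 7 libraries, and each library was a pool of RNA from more than 1 mouse, so that the SD below is a spread between pools. Apoe itself, which the mice should lack, had a pooled count of 9403 in the control and of 8293 in the erythrodiol group. The deposited count does not tell whether these reads came from outside the deleted part. By RT-PCR the paper reported no hepatic Apoe expression in its Apoe-deficient mice. Control libraries held from 34856340 to 55244294 clean reads with 64.33 to 81.43% mapped to genes. Those of the erythrodiol group held from 47669656 to 48058606 with 72.96 to 76.13% mapped.

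For each event the deposited tables gave 7 inclusion and 7 skipping counts per group without naming the libraries, which are therefore called place 1 to place 7. The inclusion share was the inclusion count as a percent of both counts together, per library. Over the 10 events the control places held 42, 112, 81, 60, 157, 220 and 151 junction counts in the order of the file, with a mean of 118 ± 62.7 (SD, n = 7). The erythrodiol places held 178, 140, 134, 128, 200, 147 and 166, with a mean of 156 ± 26.2 (SD, n = 7). Control places 1 and 4 had the fewest counts, and without them the difference of the means, 38.6 counts, was 11.9. The same places were also the lowest of the control group over the retained introns, with 752 and 517 counts against 1107 to 1922 in the other control places. A place was taken to be the same library in every event, which the tables do not state. Results are given with and without these 2 places.

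Event totals over all 14 libraries ran from 69 to 514 counts, and 6 of 10 events had under 200. Of the 140 shares, 74 rested on fewer than 10 counts, 41 in the control and 33 in the erythrodiol group. A share of 0 or 100% was found in 31 of 70 control and 16 of 70 erythrodiol values, and with so few counts it does not show that the other form was absent. Intervals are exact Clopper-Pearson 95% intervals of the summed counts of a group and cover counting error only.

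The form that was rarer in the control group had higher summed counts with erythrodiol in 8 of 10 genes and lower counts in Il18 and Ddo. The rarer form was defined from these same control counts in events selected for a difference, so a rise in it is favoured in advance. These sums are not scaled for depth, and the common form also had higher sums with erythrodiol in 8 of 10 genes and lower sums in Il18 and Zbtb44. Mean inclusion was higher with erythrodiol in Il18, Ddo and Zbtb44 and lower in the other 7 genes. The ranges of the groups overlapped in 10 of 10 events.

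**Figure D1:**
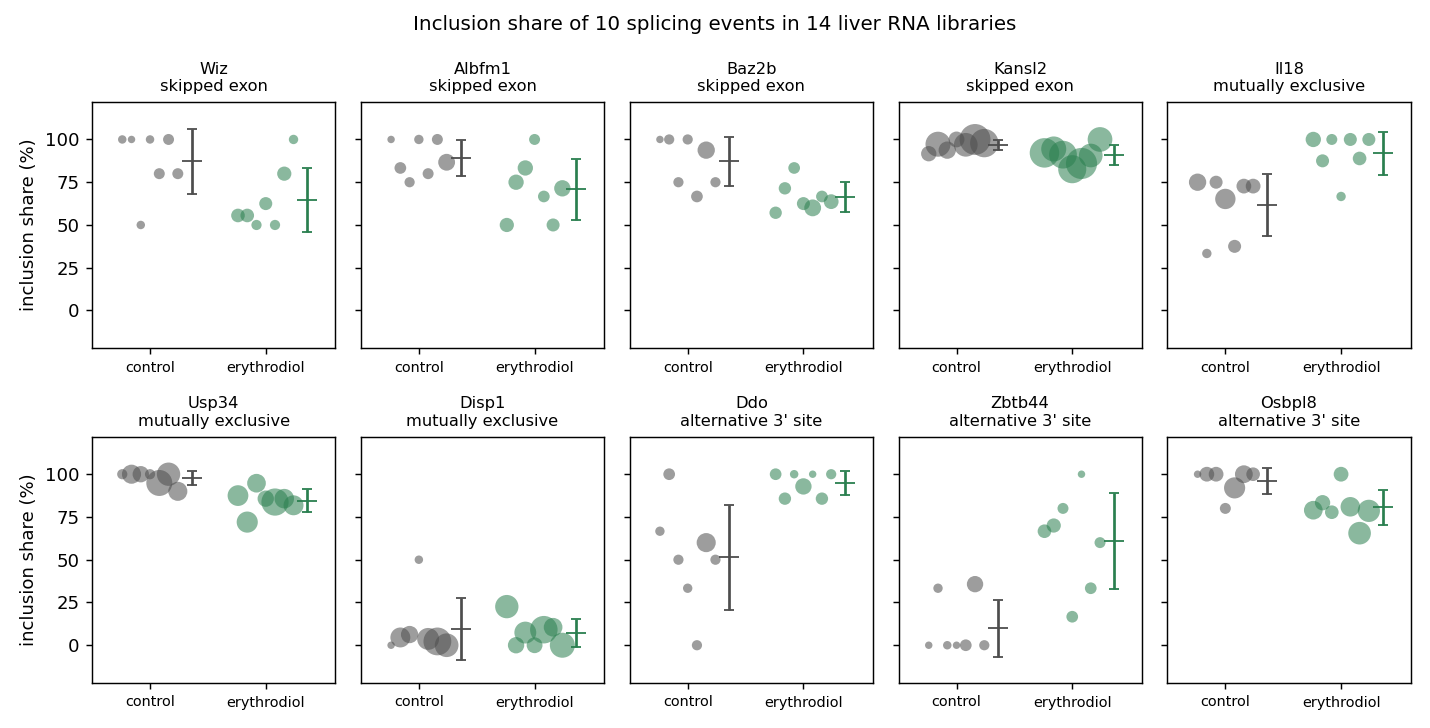
Inclusion share in percent of each of the 10 events, with 1 point per library, point area growing with its junction counts, and the mean ± SD (n = 7) to the right of each group. The ranges overlap in every panel, while in Usp34 6 of 7 erythrodiol libraries lie below the lowest control library and in Il18 6 of 7 lie above the highest.

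**Figure D2:**
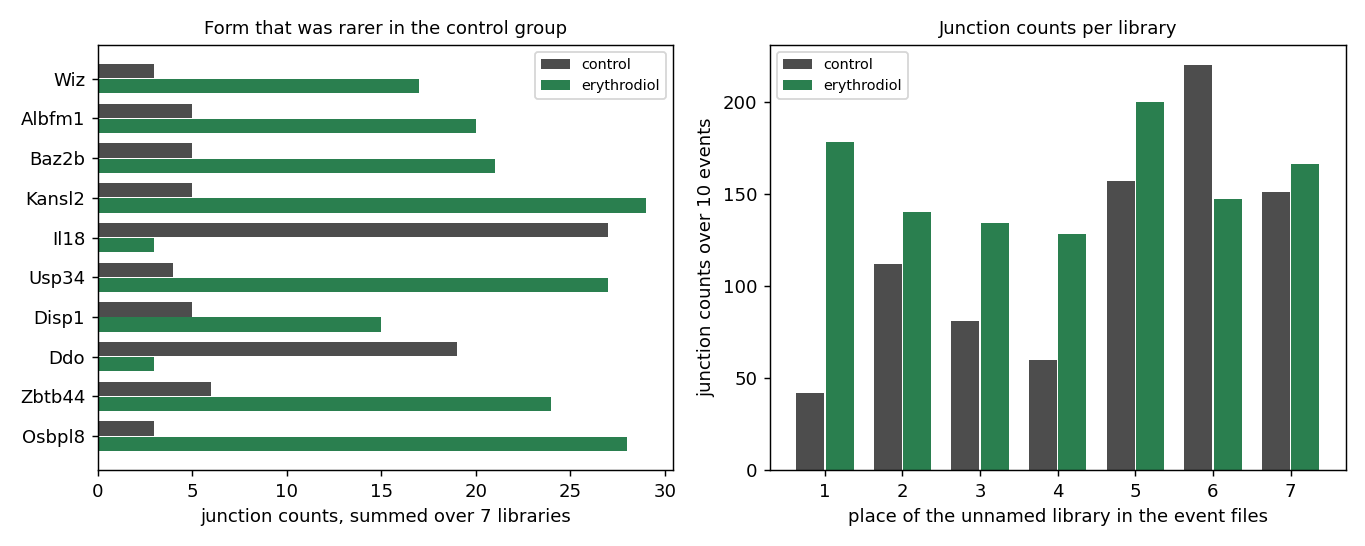
Left, summed junction counts over 7 libraries of the form that was rarer in the control group, for each gene. Right, junction counts over the 10 events for each unnamed library by its place. Control counts on the left run from 3 to 6 in 8 genes, while those of Il18 and Ddo fall from 27 and 19 to 3, and control places 1 and 4 on the right are the lowest.

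The skipped exons lay in genes for chromatin regulators and an albumin relative. Wiz, a zinc finger protein that partners the histone methyltransferases G9a and GLP, had its event at an exon of 101 bases on the minus strand. In the GENCODE M21 annotation this exact exon belongs to 1 transcript, which is marked for nonsense-mediated decay. Its sequence is shown in the direction of transcription because the annotated stop codon, in capitals, lies inside it.
Wiz exon, GRCm38 chr17:32381056-32381156, minus strand: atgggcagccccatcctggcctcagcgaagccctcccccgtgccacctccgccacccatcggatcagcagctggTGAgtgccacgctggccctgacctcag

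Its length left a remainder of 2 on division by 3. The skipping junction was in 4 GENCODE transcripts. Of the 2 inclusion junctions 1 was not in GENCODE and the other was in 6 GENCODE transcripts. Only 1 of those transcripts holds the exact exon. Inclusion counts can therefore include reads of other exons that share this boundary, and do not separate them. The authors listed the inclusion form for 1 predicted RefSeq transcript and 2 transcripts that they assembled from these data.

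Inclusion of the Wiz exon in control libraries was lowest at 50%, with a median and a highest value of 100%. With erythrodiol the lowest was 50%, the median 55.6% and the highest 100%. The means were 87.1 ± 18.9% in the control and 64.8 ± 18.6% in the erythrodiol group (SD, n = 7), a difference of -22.3 percentage points. All 7 erythrodiol values lay inside the control range, although 5 of the 7 were between 50 and 62.5% and 6 of the 7 control values were at 80% or above. No control library had more than 5 counts, and 3 skipping counts in the control stood against 17 with erythrodiol. Summed shares were 86.4% (95% interval 65.1 to 97.1%) and 63.8% (48.5 to 77.3%), which overlap. Without control places 1 and 4 the difference was -17.2 points, and the difference of medians was -44.4 points.

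Albfm1 encodes a member of the albumin family and lies on the plus strand of chromosome 5. The gene table lists it under its older symbol 5830473C10Rik. The skipped exon of 48 bases, a whole number of codons, was contained in an annotated coding exon that starts 4 bases earlier, and none of the 3 junctions of the event was in GENCODE. The annotated exon is shown with the skipped exon in capitals, since it differs from the annotation at its 3′ splice site.
Albfm1 exon, GRCm38 chr5:90563975-90564026, plus strand: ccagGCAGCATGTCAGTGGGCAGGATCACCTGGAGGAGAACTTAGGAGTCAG

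Inclusion of Albfm1 ranged from 75 to 100% with a median of 86.7% in the control and from 50 to 100% with a median of 71.4% in the erythrodiol group. Means were 89.3 ± 10.6% and 70.9 ± 17.8%, a difference of -18.4 points. Below the lowest control library lay 4 of 7 erythrodiol libraries, places 1 and 6 being the lowest at 50%. Skipping counts were 5 against 20, with summed inclusion of 87.2% (72.6 to 95.7%) and 70.1% (57.7 to 80.7%), which overlap. The difference was -14.1 points without control places 1 and 4.

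Baz2b encodes a bromodomain protein that pairs with an ISWI remodelling ATPase. Its skipped exon of 189 bases, also a multiple of 3, has the same boundaries in 1 GENCODE transcript, a processed transcript without a coding sequence. The inclusion junctions are in 1 and 2 GENCODE transcripts, and the skipping junction is in 2. The authors listed the inclusion form for 21 RefSeq transcripts, 0 of them curated, and the skipping form for 4, 1 of them curated. Of the 38 transcripts that the authors added to these genes from the data, 21 were of Baz2b, and 16 of those held this exon. It is printed as the longest of the skipped exons that GENCODE holds with the same boundaries.
Baz2b exon, GRCm38 chr2:59983782-59983970, minus strand: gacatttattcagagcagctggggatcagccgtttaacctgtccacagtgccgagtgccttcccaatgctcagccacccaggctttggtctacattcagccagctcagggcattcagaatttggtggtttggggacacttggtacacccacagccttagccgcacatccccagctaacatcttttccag

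Control libraries included the Baz2b exon in 66.7 to 100% of counts, with a median of 93.8%, and erythrodiol libraries in 57.1 to 83.3%, with a median of 63.6%. The mean was 87.2 ± 14.5% in the control and 66.4 ± 8.77% with erythrodiol, a difference of -20.8 points. Of the erythrodiol libraries 4 lay below every control library, and 4 control libraries lay above every erythrodiol library. Skipping was counted in 4 of 7 control libraries and in 7 of 7 erythrodiol libraries, with 5 and 21 counts in all. Summed inclusion was 87.2% (72.6 to 95.7%) and 65.0% (51.6 to 76.9%), which overlap. The difference fell to -15.7 points without control places 1 and 4.

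Kansl2, a subunit of the nonspecific lethal complex that acetylates histone H4, had the deepest event with 514 counts. The skipped exon spans 207 bases at chr15:98531323-98531529 on the minus strand and belonged to 1 curated RefSeq transcript. The authors listed the skipping form for 6 RefSeq transcripts, 4 of them curated. The inclusion junction at the other boundary, 98531529, was neither in GENCODE nor in the added transcripts. An annotated coding exon of 115 bases shares the boundary of the skipped exon at 98531323 and the junction from there to the next exon. Reads across that junction are therefore common to the exons of 207 and 115 bases, and inclusion counts do not separate them. The shared stretch is shown for that reason.
Kansl2 exon of 115 bases, GRCm38 chr15:98531323-98531437, minus strand: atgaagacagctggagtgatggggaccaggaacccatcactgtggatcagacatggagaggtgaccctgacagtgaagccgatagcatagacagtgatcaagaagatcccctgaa

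Kansl2 inclusion ran from 91.7 to 100% with a median of 97.2% in the control and from 82.6 to 100% with a median of 91.1% in the erythrodiol group. The means of 96.8 ± 3.09% and 91.0 ± 5.63% differed by -5.78 points. Places 4 and 5 of the erythrodiol group were lowest, and 4 of 7 erythrodiol libraries lay below the control range. Each control library had 0 or 1 skipping count, while those of the erythrodiol group had up to 8, and sums were 5 of 212 and 29 of 302. Summed shares were 97.6% (94.6 to 99.2%) and 90.4% (86.5 to 93.5%). Without control places 1 and 4 the difference was -6.16 points. An included exon has 2 junctions and a skipped one 1, and with inclusion counts halved for this reason the Kansl2 difference was -10.0 points.

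**Figure D3:**
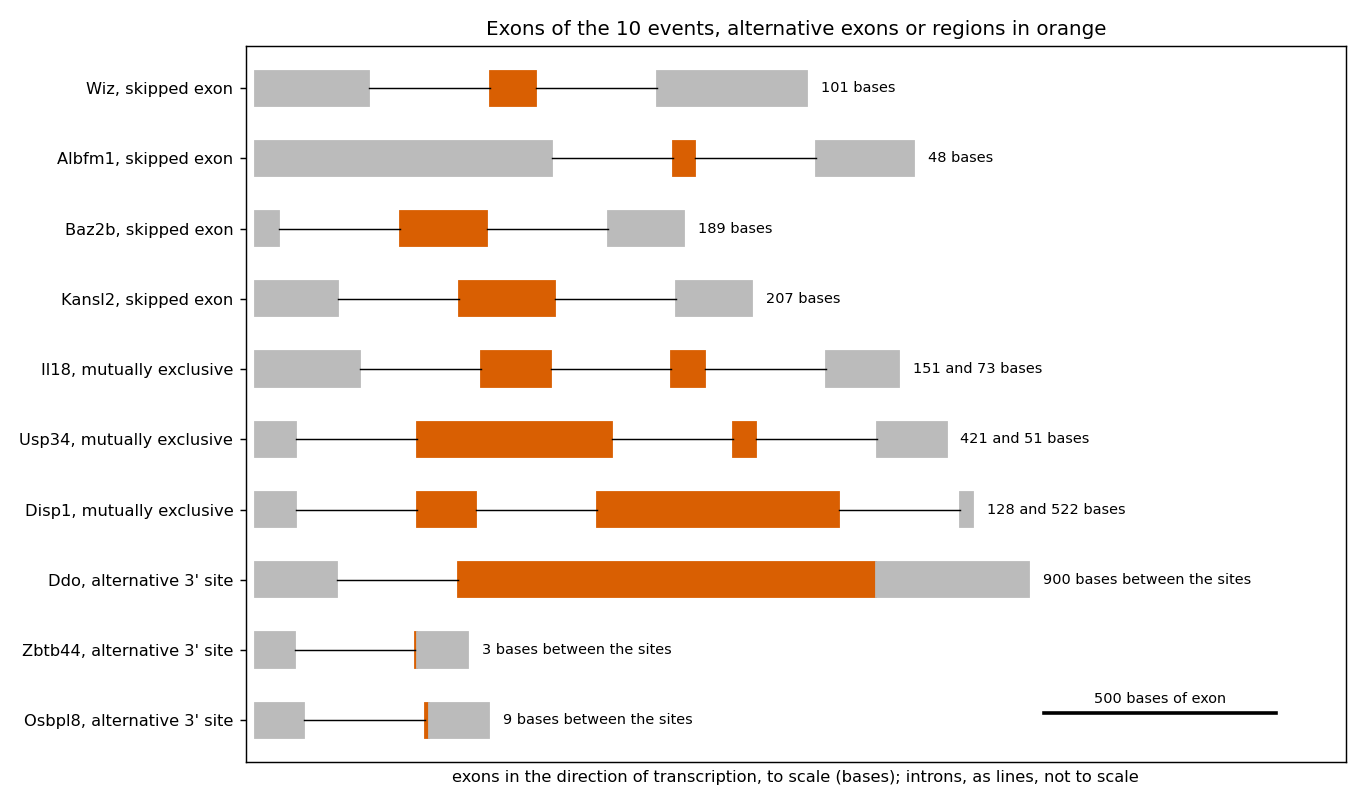
Exons of the 10 events in the direction of transcription, to scale, with alternative exons or regions in orange, shared exons in grey and introns as lines that are not to scale. Alternative exons measure 48 to 522 bases, and the paired 3′ sites lie 3, 9 and 900 bases apart.

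The mutually exclusive pairs lay in Il18, Usp34 and Disp1. Il18 encodes interleukin 18, a cytokine of macrophages and other cells that caspase 1 cuts into its active form. Its exons of 151 bases (chr9:50555903-50556053) and 73 bases (chr9:50562062-50562134) lie on the plus strand, and none of the junctions of either form was in GENCODE or in the transcripts added by the authors. Each form was listed for 1 predicted RefSeq transcript.

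The share of the 151-base exon of Il18 in control libraries was 33.3% at the lowest, 72.7% at the median and 75% at the highest. In erythrodiol libraries it was 66.7, 100 and 100%. Every erythrodiol library except place 4, with 2 of 3 counts, lay above the highest control library, and control places 2 and 5 were the lowest of all. Means were 61.6 ± 18.3% and 91.9 ± 12.4%, a difference of 30.2 points.

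In counts, the forms of Il18 differed in the 73-base exon. It had a sum of 27 in the control, with 2 to 8 in each of 7 libraries. The sum was 3 in the erythrodiol group, with at most 1 per library and in 3 of 7 libraries. The 151-base form had 53 and 50. Summed shares were 66.2% (54.8 to 76.4%) and 94.3% (84.3 to 98.8%). Unlike in the other events, control places 1 and 4 held the most Il18 counts of their group, 16 and 23 against 3 to 11, and without them the difference was 33.6 points.

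Il18 was also the gene of the 10 whose level was lower with erythrodiol, with pooled counts of 1611 and 1352. Markers of Kupffer cells, the macrophages of liver, were also lower, with 5 of 5 below 0 on the log2 scale. Of all genes with at least 100 counts, 71.2% were above 0. The summed level of the Kupffer markers was 857 CPM in the control and 526 CPM in the erythrodiol group, where CPM is the count scaled to the group total. Bile duct markers were below 0 in 5 of 5 as well. The part of either cell type in the Il18 result was not tested. In bulk liver RNA fewer cells of a type and less RNA per cell cannot be told apart.

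Usp34, a large ubiquitin protease that acts on axin in Wnt signalling, had exons of 421 bases (chr11:23333439-23333859) and 51 bases (chr11:23343320-23343370) on the plus strand. In GENCODE both exons are coding and follow each other in the same 2 transcripts. The junction into the 421-base exon and the junction out of the 51-base exon are therefore shared with transcripts that hold both exons. Counts of either form can include reads from such transcripts. Joining the upstream exon straight to the 51-base exon was found only in a transcript added by the authors. The 51-base exon, a whole number of codons, is shown as the exon that this form keeps.
Usp34 exon of 51 bases, GRCm38 chr11:23343320-23343370, plus strand: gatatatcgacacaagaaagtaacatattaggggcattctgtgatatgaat

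The 421-base form made up 90 to 100% of Usp34 counts in control libraries, with a median of 100%, and 72 to 94.7% in erythrodiol libraries, with a median of 85.7%. Means were 97.8 ± 3.95% and 84.5 ± 6.84%, a difference of -13.4 points. All erythrodiol libraries but place 3 lay below the lowest control library. Counts assigned to the other form can include reads from transcripts that hold both exons. They were found in 2 control libraries, 2 in each, and in 7 of 7 erythrodiol libraries, from 1 to 7 in each. Their sums were 4 of 132 and 27 of 168, with summed shares of the 421-base form of 97.0% (92.4 to 99.2%) and 83.9% (77.5 to 89.1%). Leaving out control places 1 and 4 gave -12.5 points.

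Disp1 encodes Dispatched, which releases cholesterol-modified Hedgehog ligands from the cells that make them. Its exons lie on the minus strand, a coding exon of 522 bases (chr1:183135355-183135876) and a non-coding exon of 128 bases (chr1:183173496-183173623). They are joined to each other in 2 GENCODE transcripts, and 1 of these shares a junction with each form, so the counts do not separate them. For the form with the 128-base exon alone the authors listed 0 transcripts. Its junction past the 522-base exon was neither in GENCODE nor in the added transcripts. By the convention of rMATS the inclusion form of an event on the minus strand holds the 128-base exon, which the table does not state. The inclusion share of Disp1 was 0 to 50% with a median of 3.70% in the control and 0 to 22.6% with a median of 7.41% in the erythrodiol group.

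The direction for Disp1 depended on 1 control library. Place 4 had 1 inclusion count among 2 counts and hence the share of 50%, and the other 6 control libraries were between 0 and 6.25%. Means over libraries were 9.53 ± 18.0% and 7.09 ± 8.23%, a difference of -2.45 points. Summed counts were 5 of 145 and 15 of 184, or 3.45% (1.13 to 7.86%) and 8.15% (4.63 to 13.1%), which is 4.70 points higher with erythrodiol. Without control places 1 and 4 the mean was 3.74 points higher with erythrodiol. Of the 15 erythrodiol inclusion counts 7 came from place 1, and 3 erythrodiol libraries had none.

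The alternative 3′ splice sites lay in Ddo, Zbtb44 and Osbpl8. In Zbtb44, a BTB zinc finger protein, the sites lay 3 bases apart at chr9:31064230 and chr9:31064233, a tandem acceptor that adds or removes 1 codon. The stretch below is shown because both sites can be read in it. The capitals mark the 3 bases that only the long form keeps, and the bases before each site are CAG.
Zbtb44 acceptors, GRCm38 chr9:31064215-31064256, plus strand: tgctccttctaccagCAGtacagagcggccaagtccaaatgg

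The short form is annotated in 3 GENCODE transcripts, and the long form was listed for 1 predicted RefSeq transcript and 1 transcript added by the authors. This event was also the shallowest after Wiz, with 31 control and 42 erythrodiol counts.

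Use of the upstream Zbtb44 site, the long form, was 0% in 5 of 7 control libraries and 33.3% and 35.7% in places 2 and 6. In erythrodiol libraries it was 16.7% at the lowest, 66.7% at the median and 100% at the highest. Means were 9.86 ± 16.9% and 61.0 ± 28.1%, a difference of 51.1 points, the widest of the 10 genes. Above every control library lay 5 of 7 erythrodiol libraries, the exceptions being places 4 and 6. Long form counts were 6 in the control and 24 in the erythrodiol group, and short form counts 25 and 18. Summed shares were 19.4% (7.45 to 37.5%) and 57.1% (41.0 to 72.3%), a narrower difference of 37.8 points, and the mean difference was 47.1 points without control places 1 and 4.

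Osbpl8, a lipid transfer protein of the endoplasmic reticulum that binds sterols and phosphatidylserine, had its sites 9 bases apart at chr10:111233553 and chr10:111233562. The junction of the long form is in 1 GENCODE transcript, in which these bases are not coding. The long exon has the same boundaries in 3 GENCODE transcripts, and its span overlaps coding sequence in 2. The short junction was neither in GENCODE nor in the transcripts added by the authors, who listed the short form for 2 predicted RefSeq transcripts. The start of the long exon is shown with the 9 bases between the sites in capitals. They end in TAG, the acceptor of the short form.
Osbpl8 long exon start, GRCm38 chr10:111233553-111233582, plus strand: CTGTTGTAGcgaacagtgacgaacctcagc

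Long form use of Osbpl8 was 80% at the lowest and 100% at the median and highest in the control. With erythrodiol it was 65.5, 78.9 and 100%. The means were 96.0 ± 7.66% and 80.7 ± 10.2%, a difference of -15.3 points. Of the erythrodiol libraries 4 lay below the lowest control library, which was place 4 with 5 counts. The short form had 3 of 79 counts in the control, in 2 libraries, and 28 of 129 with erythrodiol, in 6 libraries. Summed shares of the long form were 96.2% (89.3 to 99.2%) and 78.3% (70.2 to 85.1%). Without control places 1 and 4 the difference was -17.7 points, and 6 of 7 erythrodiol libraries were below the control range.

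Ddo encodes D-aspartate oxidase, a peroxisomal enzyme that degrades D-aspartate. Its sites lay 900 bases apart on the plus strand, at chr10:40673686 for the long form, annotated in 1 GENCODE transcript, and at chr10:40674586 for the short form, annotated in 3. Both starts are shown. Capitals in the second mark the first 15 bases of the short exon, which follow a TAG.
Ddo long exon start, GRCm38 chr10:40673686-40673715, plus strand: gtcatttgagaccctggaagcccaaggcac
Ddo short exon start, GRCm38 chr10:40674571-40674600, plus strand: ttgtgttttctctagGGCTATTGGCTTACT

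Control libraries used the long Ddo form in 0 to 100% of counts, with a median of 50%, the widest control range of the 10 genes. Erythrodiol libraries used it in 85.7 to 100%, with a median of 100%. The mean was 51.4 ± 30.7% in the control and 94.9 ± 6.79% with erythrodiol, a difference of 43.5 points. Below every erythrodiol library lay 6 of 7 control libraries, while place 2, with 6 of 6 counts for the long form, was at 100%. The short form had 19 counts in 6 control libraries, 8 of them in place 6, and 3 counts in 3 erythrodiol libraries. Summed shares were 56.8% (41.0 to 71.7%) and 92.7% (80.1 to 98.5%). The difference was 42.9 points without control places 1 and 4.

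Over the 10 events, 30 junctions define the forms. Of these 16 were in GENCODE, 4 were not but were in transcripts added by the authors, and 10 were in neither. RefSeq transcripts were not compared at the level of junctions. Introns spanned 140 to 67075 bases, with a median of 9483.

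Gene levels were deposited as 1 pooled count per gene and group, so that the ratios below compare pooled libraries without replicate error. None of the 10 genes was past 2-fold in either direction, against 0.767% of 13291 genes with at least 100 counts, and none was past 1.5-fold, against 5.67%. The log2 ratio of erythrodiol to control was above 0 in 9 of 10 genes. It was also above 0 in 71.2% of all genes, whose median was 0.16, while the median of the 10 genes was 0.36. Relative to the median of all genes the 9 genes lay between 0.06 and 0.33 and Il18 at -0.44.

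Among the skipped exon genes, Wiz had pooled counts of 2621 and 3745, and its log2 ratio was 0.49 (95% counting interval 0.42 to 0.57). Albfm1 followed with 5575 and 6782, a log2 ratio of 0.26, and Kansl2 with 3175 and 4043, a log2 ratio of 0.33. Baz2b had a log2 ratio of 0.40. All 4 genes had more junction counts of their event with erythrodiol.

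Of the genes with exclusive exons, Il18 had a log2 ratio of -0.27 (-0.38 to -0.17), and Usp34 and Disp1 had ratios of 0.33 and 0.41. Disp1 was the lowest gene per length, at 0.54 CPM per kilobase in the control group and 0.72 with erythrodiol, and Albfm1 the highest at 19.8 and 23.8. The genes with alternative 3′ sites had log2 ratios of 0.42 for Ddo, 0.23 for Zbtb44 and 0.40 for Osbpl8. Ddo differed from the rest in that its gene count was higher with erythrodiol, 1834 against 2486, while its junction counts were 44 against 41.

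**Figure D4:**
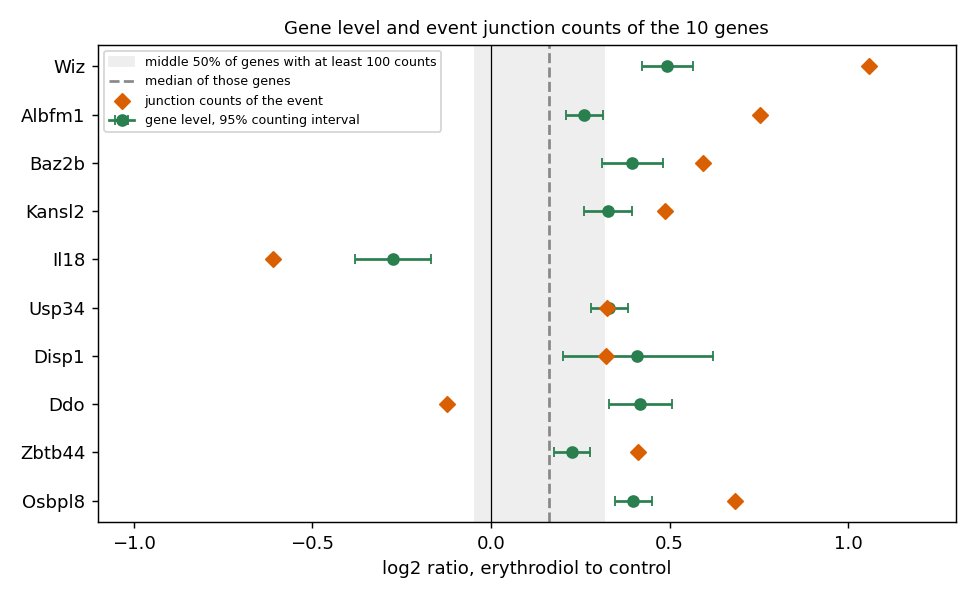
Log2 ratio of erythrodiol to control of the pooled gene count (circles, 95% counting interval) and of the event's junction counts (diamonds) for each gene, with the median of all genes (dashed line, 0.16) and the middle 50% of them in grey. Circles lie between -0.27 for Il18 and 0.49 for Wiz.

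Binding partners, family relatives and genes of related pathways were listed for the genes other than Albfm1. All are called partners here, which does not mean that binding to the member is known. Of 45 partners 42 had at least 100 counts. The partner past 2-fold upward was Disp2, with 157 and 326 counts, and the partner past it downward was Pycard, with 377 and 183, against 0.218% and 0.549% of all genes. Past 1.5-fold were 3 upward and 2 downward, against 2.54% and 3.13% of all genes. The median log2 ratio of the list was 0.31. With the median of all genes set to 0, Disp2, a relative of Disp1 in Hedgehog release, was no longer past 2-fold, at 0.87. Pycard, the adaptor of the inflammasome that activates caspase 1, was at -1.22 on that scale.

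Partners of Il18 were the group with mostly negative log2 ratios, 6 of 7 below 0 with a median of -0.27 and as many with the median of all genes set to 0, and Casp1, which encodes the enzyme that cuts interleukin 18, was at -0.40. Partners of Kansl2 were above 0 in 8 of 8, with a median of 0.36, and in 6 of 8 with the median of all genes set to 0, and Kansl1, the scaffold of that complex, was at 0.43. Ehmt1, the GLP methyltransferase bound by Wiz, was at 0.45, and Smarca5, the ISWI ATPase paired with Baz2b, at 0.16, or -0.0059 relative to the median of all genes. Axin1, the substrate of Usp34, was at 0.33.

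For the remaining genes, Srr, which encodes serine racemase and was listed for Ddo, was at 0.35. Zbtb20, a repressor of alpha-fetoprotein in liver and a relative of Zbtb44, was at 0.68, or 0.52 relative to the median of all genes. Osbpl5, the closest relative of Osbpl8, was at 0.32.

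Splicing factors were taken as a list of 34 SR, hnRNP and related genes, all of which had at least 100 counts. None was past 2-fold or 1.5-fold, and 31 of 34 were above 0, with a median log2 ratio of 0.23 and a range from -0.46 for Srsf3 to 0.44 for Rbfox2. With the median of all genes set to 0 the list's median was 0.07 and 26 of 34 were above 0. Pooled gene counts do not show changes in the activity of these proteins.

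Markers of the other cells of liver were read from the same counts. Hepatocyte markers had a median log2 ratio of 0.15 over 6 genes, endothelial markers 0.14, stellate markers 0.04 and lymphocyte markers 0.03 over 5 each, all of them below the 0.16 of all genes. Kupffer markers ran from -1.07 for Marco, past 2-fold lower, to -0.59 for Vsig4, and 5 of 5 bile duct markers were below 0 with a median of -0.55. Of 5 neutrophil markers 2 had at least 100 counts, S100a8 and S100a9, both past 2-fold lower, against 0.549% of all genes. The markers with fewer counts were mixed. Ly6g was at 0.20 with 39 and 45 counts, Camp at -0.31 with 5 and 4, and Elane at -0.78 with 24 and 14. The part of these cells in the other 9 events was not tested.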

How the data were processed

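Per the labels and the methods, the authors filtered BGISEQ-500 reads, mapped them to the genome with HISAT, assembled added transcripts with StringTie and Cufflinks, compared splicing between groups with rMATS, and counted genes with Bowtie2 and RSEM. Versions are not given in the sources used here. RefSeq chromosome accessions in the files gave the build GRCm38. Events were deposited with 7 whole-number counts of each form per group, without library names. Genes were deposited as an expected count per group summed over its libraries. The authors also deposited, per library, the count of clean reads and the percent mapped to genes. Columns with the authors' own log2 ratios, p-values, q-values and FDR of the comparison were not used.

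Inclusion shares were computed from raw counts, since the tables give no form lengths for the length correction planned. Event starts are counted from 0: of 33 exon starts 26 were found in GENCODE M21 so and 0 when counted from 1. Exon sequences were read from the GENCODE transcripts. Log2 ratios were scaled by group totals with 0.5 added to each count, with 2-fold as the call and genes of at least 100 counts as background. The members and gene lists were chosen with earlier results of these data known. The genes named were the 10 members, Apoe, and listed partners past 2-fold or first in the list of a member with at least 100 counts. The markers and splicing factors at the ends of a range were named after their values were seen. The computation was tested on simulated data. Python 3.11.15, numpy 2.4.6, scipy 1.17.1 and matplotlib 3.10.9 were used.

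Alternatives were summed counts, medians, libraries with at least 10 counts, each library left out, 1 added to counts, 10 counts as minimum, 1.5-fold and the median of genes set to 0. Leaving out control places 1 and 4 and halving inclusion counts of skipped exons were added after seeing the data.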

Additional observations from a re-analysis of the deposited data

Results flagged for a closer look

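In 42 sets of 7 values, the inclusion share and the junction counts of each event in each group and the totals over events, 9 had a lowest or highest library whose gap to its neighbour, as a share of the range, was over the 95% limit of Dixon's test. Chance gives about 1 in 20 sets only for independent sets of normal values. Of the 140 shares 47 were at 0 or 100% and 74 rested on fewer than 10 counts. The sets also share libraries, so this rate need not hold here. Shares with such a library were those of Disp1 in the control, where place 4 stood at 50% and the next library at 6.25%, of Wiz in the control, where place 3 stood at 50% below 80%, of Osbpl8 in the control, where place 4 stood at 80% below 92%, and of Il18 with erythrodiol, where place 4 stood at 66.7% below 87.5%. Each of these 4 libraries had 5 or fewer counts of the event. Junction counts with such a library were those of Ddo in control place 6, with 20 counts above 6, of Baz2b in control place 6, with 16 above 6, and of Zbtb44 in control place 6, with 14 above 6. The Albfm1 event had 15 counts in control place 7 above 6, and Usp34 had 43 counts in erythrodiol place 5 above 25.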

How the results depend on the processing

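No paired analysis was possible because the event tables do not name the libraries, so that no fit with a replicate block could be made. Direction changed for Disp1, whose difference of -2.45 points became 4.70 with summed counts, 3.70 with the median of libraries, and 3.74 both with libraries of at least 10 counts and without control places 1 and 4. Leaving out 1 library at a time moved it from -5.03, without erythrodiol place 1, to 4.30, without control place 4. For Wiz the difference of medians was -44.4 points. With inclusion counts of skipped exons halved, the differences were -30.1 for Wiz, -24.4 for Albfm1, -29.5 for Baz2b and -10.0 for Kansl2. The 9 events other than Disp1 kept their direction under every alternative that gave them a value. The events were selected on a difference in these same counts, so a kept direction is no independent evidence. The limit of 10 counts left 4 events with 2 or more libraries in each group. The number of events with a higher share with erythrodiol was 3, and 3 to 4 with 1 library left out. The difference in mean junction counts per library was 38.6, from 26.0 to 55.6 with 1 library left out and 11.9 without control places 1 and 4. With the median of all genes set to 0, the median log2 ratio was 0.20 for the 10 genes, 0.15 for partners and 0.071 for splicing factors, and 0 partners were past 2-fold upward. At 1.5-fold, 3 partners were higher and 2 lower, and 5.67% of all genes were past it. With a minimum of 10 counts, 3.04% of genes were past 2-fold. The length correction of shares could not be run without form lengths.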
